A study of Mus musculus with 5 samples.

Results

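The genes described here are the mouse leak, M-type, calcium-activated, sodium-activated, inwardly rectifying and ether-a-go-go potassium channels together with the HCN pacemaker channels. They were chosen by symbol alone: every measured gene whose name starts with Kcnh, Kcnj, Kcnk, Kcnm, Kcnn, Kcnq, Kcnt or Hcn and goes on with a member number or subunit letter. The rule found 39 of 14715 measured genes. Of these, 37 code for channel subunits and 2, Kcnq1ot1 and Kcnmb4os2, are antisense RNAs at channel genes. The families hold 8 Kcnk, 8 Kcnj, 6 Kcnq, 6 Kcnh, 4 Hcn, 4 Kcnm, 2 Kcnn and 1 Kcnt gene, counting each antisense RNA with its host family.

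The measurements are RNA counts in 1954 individual neurons of the spiral ganglion, the auditory ganglion of the cochlea, sorted for tdTomato from mice of both sexes aged 30 to 33 days. The 2 control samples had the genotype bhlhb5-Cre/+; Ai14/+, in which Cre recombinase switches on a tdTomato reporter. The 3 conditional knockout (CKO) samples carried the same 2 transgenes and floxed Runx1, so Runx1 was deleted in the embryo wherever bhlhb5-Cre acts, and every cell of either genotype has a history of Cre. No source used here says whether a sample pools several animals. The record of cells names their genotype only. The 1070 control and the 884 CKO neurons were therefore handled as 1 pool each, and no test between pools was made.

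The columns of the matrix fall into 5 stretches in which cell barcodes run in alphabetical order, of which numbers 1, 3 and 4 are CKO and numbers 2 and 5 control. No source says which library a stretch is, so values by stretch are given to show spread and are not replicates. The same barcode occurs in 1 cell of each genotype. Cells held 10379 to 100856 UMIs (unique molecular identifiers, each marking 1 captured molecule), with medians of 38085 in control and 44120.5 in CKO. Levels are mean UMIs per 10000 UMIs of a cell, and log2 values are log2((a + 0.1)/(b + 0.1)) of 2 such levels. A gene counts as different where these differ at least 1.5-fold and the mean is at least 0.2 in either group. Since 1 molecule gives at most 1 UMI at its 3′ end whatever its length, levels of different genes are compared as counts, although capture can differ between genes.

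Neurons were put into 4 classes by 3 genes. Cells with Dupd1 at 1 or more were type II, then those with Lypd1 at 3 or more were Ic, then those with Calb2 at 150 or more were Ia, and the rest were Ib. Control gave 242 Ia, 395 Ib, 314 Ic and 119 II neurons, and CKO gave 384, 216, 132 and 152. Type II and Ic stood well apart from their neighbours, with 5 of 1070 control cells near the Dupd1 value that splits them (0.5 to 2) and 26 of 951 near that of Lypd1 (1.5 to 6). The Ia and Ib classes are ranges of Calb2 rather than separate types: 103 of 637 control and 194 of 600 CKO neurons of these classes had a Calb2 level of 100 to 200. Calb1, a marker of Ib neurons, was 1.31 in control Ib against 0.283 in Ia and 0.0894 in Ic. In CKO it was 1.90, 2.56 and 1.46 in Ia, Ib and Ic, so by this marker the CKO classes were not like those of control. The other Ib markers listed, Ttn and Lrrc52, stayed highest in Ib in CKO. Ttn was 0.0954, 0.792 and 0.0645 there in the same order, and Lrrc52 0.0154, 0.0436 and 0.0104. Class shares also differed between stretches of the same genotype: Ia made up 47.0%, 53.2% and 12.1% of CKO stretches 1, 3 and 4, and 10.8% and 32.3% of control stretches 2 and 5, so stretch 4 stood apart from the other CKO stretches. Neuronal genes were high in every class, the 11 listed summing to 99.8 to 247. Runx1 RNA was 1.23 in control and 1.68 in CKO. In Ia, Ib and Ic it was 0.223, 1.73 and 1.84 in control and 1.65, 2.36 and 2.51 in CKO. The Ia classes of the 2 genotypes thus also differed in Runx1 RNA. No source used here says where the counted 3′ tags lie relative to the deleted part of Runx1, so these levels do not check the deletion.

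Leak channels of the Kcnk family stay open near rest and hold the membrane potential negative. M-type channels, built from Kcnq subunits, open slowly close to spike threshold and limit repetitive firing, and muscarinic receptors close them. HCN channels open when the membrane hyperpolarizes and pass a mixed sodium and potassium current that pulls it back, and in auditory neurons they shape resting potential and spike timing. Type I neurons, classes Ia to Ic, contact inner hair cells, and type II neurons are thin unmyelinated neurons that contact outer hair cells.

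Kcnk1, a weakly rectifying leak subunit of the TWIK type, had the highest level of the 39 genes, and its RNA was lower in Ic than in Ia and Ib and lowest in type II. In control its level was 9.34 in Ia, 7.92 in Ib, 5.07 in Ic and 1.68 in II. In CKO it was 8.97, 8.64, 5.69 and 1.69 in the same order. Hcn2 followed a similar order at a lower level. Upstream windows of 3 genes are printed here from RefSeq, genome build GRCm38.p6. With all stretches kept, none of these 3 genes counted as different between genotypes, over all neurons or in a class. Each window is 250 bases that end just before an annotated transcript start and run 5′ to 3′ on the strand of the gene. They are Kcnk1 at chr8:125994852-125995101 on the plus strand, Hcn2 at chr10:79716384-79716633 on the plus strand, and Kcnh2 at chr5:24329592-24329841 on the minus strand, an internal start of that gene. Capitals mark letters of the RUNX motif.
Kcnk1: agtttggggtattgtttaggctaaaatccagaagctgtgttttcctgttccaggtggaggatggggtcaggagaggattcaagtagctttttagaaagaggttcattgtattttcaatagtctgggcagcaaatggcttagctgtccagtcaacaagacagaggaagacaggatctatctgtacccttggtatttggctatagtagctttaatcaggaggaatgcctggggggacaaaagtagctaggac
Hcn2: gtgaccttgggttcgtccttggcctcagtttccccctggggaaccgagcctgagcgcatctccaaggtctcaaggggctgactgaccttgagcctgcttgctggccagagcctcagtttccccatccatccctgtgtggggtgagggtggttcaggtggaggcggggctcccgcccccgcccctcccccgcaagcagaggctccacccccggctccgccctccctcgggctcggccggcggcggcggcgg
Kcnh2: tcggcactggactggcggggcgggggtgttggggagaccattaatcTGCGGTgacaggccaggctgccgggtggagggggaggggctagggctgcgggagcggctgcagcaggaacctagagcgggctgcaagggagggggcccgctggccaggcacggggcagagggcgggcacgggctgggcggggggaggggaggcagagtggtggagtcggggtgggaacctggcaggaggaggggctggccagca
The windows differ in base composition, with 44.4% G and C for Kcnk1, 70.4% for Hcn2 and 73.6% for Kcnh2. RUNX proteins are known to bind TGTGGT and TGCGGT, and both spellings were searched on both strands; they cannot overlap as the same letters. The Kcnh2 window holds TGCGGT, 204 bases before the start, and the Kcnk1 and Hcn2 windows hold neither spelling. Over windows of 300 bases, from 250 before to 50 after a start, 5 of 34 windows of these channel genes held either spelling (14.7%), in Kcnh2, Kcnj3, Kcnk10, Kcnk2 and Kcnk5, beside 7362 of 32851 windows of all genes (22.4%). Windows were found for 27 of the 39 genes. Letters that match describe the sequence and do not show binding.

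The leak channels of the Kcnk family were led by Kcnk1. Kcnk1 (ENSMUSG00000033998, chromosome 8, 125995170 to 126030685, plus strand) was 7.91, 6.87 and 6.07 in stretches 1, 3 and 4 (CKO), and 5.88 and 7.39 in stretches 2 and 5 (control). The genotypes therefore overlapped for Kcnk1, and the pools were close, at 6.71 in control and 7.15 in CKO. The order of the classes was steadier than that of the stretches: Ic was below Ib and II below type I in 5 of 5 stretches, while Ia was above Ib in 4 of 5. An antisense transcript shares 179 exon bases with Kcnk1, and no source used here says whether counting used strand, so reads from the pair cannot be told apart.

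Kcnk1 RNA rose with Calb2 across type I neurons. The bins and correlations below take in Ia, Ib and Ic together. Mean Calb2 was 9.88 in control Ic and 60.5 in control Ib. A grade within classes and a step between Ic and Ib therefore cannot be told apart here. From the bin of control neurons with Calb2 under 10 to that over 300, the Kcnk1 level went from 4.65 to 9.36, and in CKO from 4.86 to 9.84. At intermediate Calb2 of 50 to 100 it was 8.11 in control and 8.22 in CKO, so most of the difference lay below that level. Across 951 control type I neurons the Spearman correlation of Kcnk1 with Calb2 was 0.68 (0.66 and 0.61 within stretches 2 and 5). Across 732 CKO neurons it was 0.44 (0.29, 0.40 and 0.58 within stretches 1, 3 and 4). These correlations describe cells that share a library and a common total and carry no test.

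Kcnk3, an acid-sensitive leak subunit of the TASK type, ran opposite to Kcnk1 among the type I classes, while both were lowest in type II in the pools. In control it was 0.20 in Ic, 0.0764 in Ib, 0.0203 in Ia and 0.0153 in II, and in CKO 0.130, 0.0508, 0.00568 and 0. The RNA was therefore densest in the Lypd1-rich class in both genotypes, with Ic above Ib in every stretch. In control, 237 of its 375 UMIs came from the 314 Ic neurons. After each cell was thinned to 10000 UMIs, 17.8% of control Ic neurons (exact 95% interval 13.8 to 22.5) and 17.4% of CKO Ic neurons (11.4 to 25.0) had a Kcnk3 UMI, against 2.89% and 1.30% in Ia; unthinned the Ic shares were 50% and 38.6%. A second random thinning gave 15.6% and 17.4% in Ic, and 2.89% and 0.260% in Ia. All intervals here cover counting error only and leave out the chance of the thinning draw. A transcript on the opposite strand, Gm9899, shares 229 exon bases with Kcnk3 and cannot be told apart from it here.

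Kcnk10, a TREK-type leak subunit opened by stretch and lipids, was highest in Ib. Control levels were 0.0699 in Ia, 0.243 in Ib and 0.157 in Ic, and CKO levels 0.108, 0.208 and 0.183. Kcnk10 was not seen in control type II neurons: 0 of 119 cells, which allows a share of up to 2.52% (3 counts of the total), against 25.2% to 55.7% of the control type I classes at full depth. In CKO type II 2 UMIs were counted. Free Kcnk10 RNA in type II droplets was therefore at most these 2 UMIs. The other 5 Kcnk genes stayed under a mean of 0.2 in every class, and Kcnk4, Kcnk5 and Kcnk9 had 16 to 20 UMIs in all 1954 cells.

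**Figure D1:**
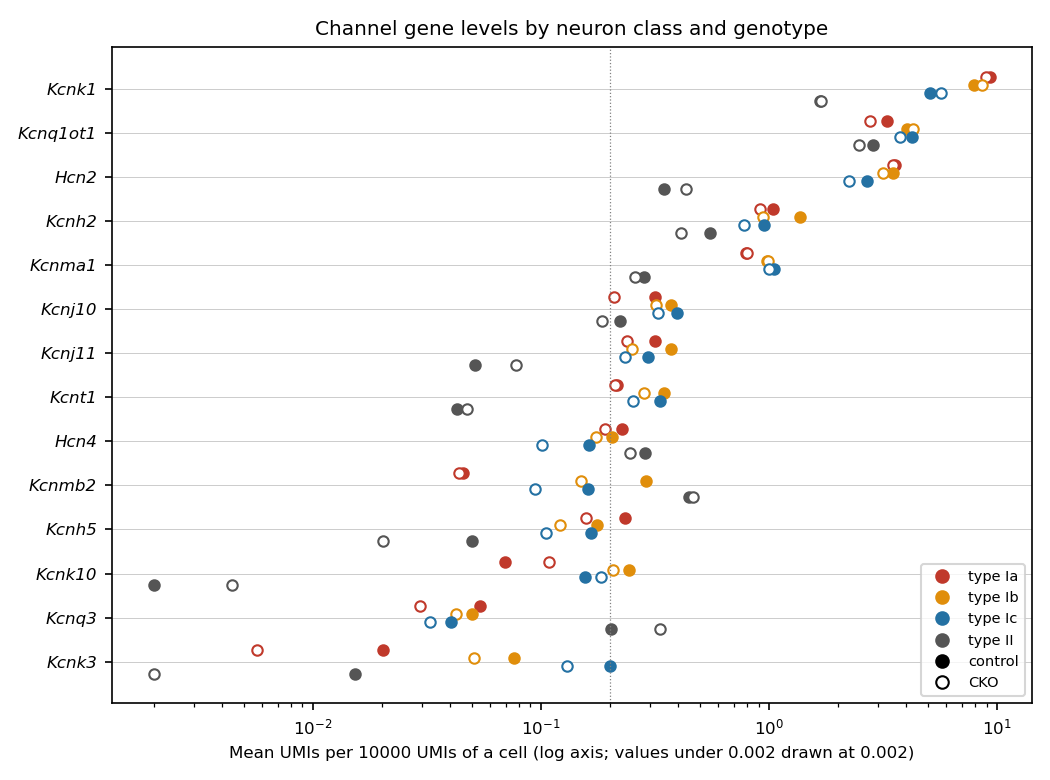
Levels (mean UMIs per 10000, log axis) of 14 channel genes that reach 0.2 in a genotype or class, by class of neuron, in control (filled) and CKO (open); the dotted line marks 0.2 and the lowest values are drawn at the left end of the scale. Kcnk1 and Hcn2 stand lowest in type II (1.68 and 0.345 in control), while Kcnq3 and Kcnmb2 stand highest there (0.202 and 0.447).

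Among the HCN channels, the Hcn2 level differed steeply between type I and type II neurons. Hcn2, a subunit that cyclic AMP strongly regulates, was 3.58, 3.48, 2.69 and 0.345 in control Ia, Ib, Ic and II, and 3.49, 3.15, 2.24 and 0.433 in CKO. For all neurons the Hcn2 level was 2.46, 3.26 and 1.89 in the CKO stretches and 2.92 in both control stretches. The high and the low value were thus both in CKO stretches, and the genotypes overlapped. After thinning, 31.9% of control type II neurons had an Hcn2 UMI (23.7 to 41.1; 61.3% unthinned) beside 93.9% to 96.7% of the type I classes. A second random thinning gave 23.5% in type II and 93.3% to 97.2% in type I.

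Hcn4, the slowest subunit, kept a low level that was highest in type II in both pools. It was 0.228, 0.204, 0.162 and 0.285 in control Ia to II and 0.191, 0.175, 0.101 and 0.245 in CKO, and type II lay above type I as a whole in 5 of 5 stretches. Ia alone was above II in stretch 1 (0.211 against 0.203) and in stretch 4 (0.256 against 0.181). By stretch, over all neurons, it was 0.198, 0.184 and 0.146 in CKO and 0.217 and 0.197 in control. Hcn3 was lower still, at most 0.0886 in any class.

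Of the M-type genes, Kcnq3, a subunit that joins others of the family in the M channel, was concentrated in type II. Kcnq3 was 0.0542, 0.0499, 0.0404 and 0.202 in control and 0.0294, 0.0424, 0.0327 and 0.334 in CKO. Type II thus held several times more Kcnq3 RNA per 10000 UMIs than any type I class in both pools.

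Kcnq5 and Kcnq1 had 85 and 100 UMIs in all cells. Kcnq1ot1, an imprinted antisense RNA that silences neighbouring genes on the paternal chromosome, had the second highest level of the 39 genes. It was 3.28, 4.05, 4.23 and 2.87 in control Ia to II and 2.78, 4.30, 3.77 and 2.48 in CKO, and by stretch 3.20, 2.97 and 4.02 in CKO and 4.03 and 3.61 in control. It shares 121 exon bases with Kcnq1 on the other strand.

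Among the ether-a-go-go genes, Kcnh2, the ERG-type subunit that repolarizes heart muscle, led. Kcnh2 (ENSMUSG00000038319, chromosome 5, 24319589 to 24351604, minus strand) was highest in control Ib at 1.37, with 1.04 in Ia, 0.949 in Ic and 0.553 in II. In CKO the classes were closer together, at 0.910, 0.944, 0.777 and 0.411. Over all neurons Kcnh2 was 0.681, 0.956 and 0.770 in the CKO stretches, beside 1.07 and 1.09 in the control ones. Each CKO stretch was thus below both control stretches, as for 13.3% of all genes at a mean of 0.2 or more. Kcnh5, an EAG-type subunit, reached 0.233 in control Ia and 0.0501 in type II. Kcnh7 was higher in type II than in type I in 5 of 5 stretches, at a level of only 0.0981 in control.

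Large-conductance calcium-activated channels, which open with both voltage and calcium, are built from the pore subunit Kcnma1 and modulating beta subunits. Kcnma1 was 0.794, 0.976, 1.06 and 0.282 in control Ia, Ib, Ic and II, and 0.799, 0.986, 1.0 and 0.258 in CKO. Over all neurons it was 0.760, 0.737 and 0.940 in the CKO stretches, beside 0.936 and 0.837 in the control ones, without a difference between genotypes larger than the spread of stretches. Kcnmb2, the beta subunit that can inactivate the channel, went the other way between type I and type II. It was 0.0457, 0.290, 0.161 and 0.447 in control and 0.0439, 0.150, 0.0939 and 0.466 in CKO.

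In control type II neurons there were 1.53 Kcnmb2 UMIs per Kcnma1 UMI (1.16 to 2.02), against 0.304 in Ib, 0.152 in Ic and 0.0572 in Ia. In CKO type II the ratio was 1.71 (1.35 to 2.17), and across the 5 stretches it ranged from 1.21 to 2.29 in type II and from 0.0354 to 0.232 in type I. The 2 ranges did not meet. Kcnmb4, a beta subunit best known from brain, had 0.281 UMIs per Kcnma1 UMI in control type II and 0.0609 to 0.0631 in the control type I classes. Its own level differed less, at 0.0807 in control type II and 0.0443 to 0.0652 in the type I classes, since Kcnma1 was itself low in type II. Kcnmb4os2 shares 693 exon bases with Kcnmb4 on the other strand. The small-conductance genes Kcnn1 and Kcnn2, gated by calcium alone, stayed under 0.2 in all classes and were 0.0477 and 0.00322 in control type II. Kcnt1, the sodium-activated Slack channel, was 0.216, 0.346, 0.332 and 0.0429 in control Ia to II and 0.211, 0.284, 0.253 and 0.0472 in CKO. Its stretches were 0.155, 0.241 and 0.245 in CKO and 0.293 and 0.268 in control.

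The inward rectifiers were led by Kcnj10 and Kcnj11. Kcnj11, the pore of ATP-sensitive channels that couple metabolism to excitability, was 0.316, 0.370, 0.294 and 0.0515 in control Ia to II and 0.238, 0.252, 0.233 and 0.0780 in CKO. Over all neurons it was 0.201, 0.231 and 0.198 in the CKO stretches, beside 0.302 and 0.299 in the control ones. Each CKO stretch was below both control stretches, as for 13.3% of all genes at a mean of 0.2 or more. Within Ia the genotypes overlapped, with 0.203, 0.277 and 0.143 in CKO and 0.243 and 0.336 in control. Kcnj12, a strong rectifier, had 0 UMIs in 119 control type II neurons, which allows a share of up to 2.52% of cells with a UMI, and 0.0926 to 0.165 in the control type I classes. Kcnj14 was 0.105 in control Ic, 0.0314 in Ib, 0.00400 in Ia and 0 in II, an order like that of Kcnk3.

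Kcnj10 is the potassium-buffering channel of glia, and here its RNA followed Schwann cell RNA. Among control type I neurons with under 5 UMIs per 10000 over 5 Schwann cell myelin genes, Mbp, Pmp22 and Prx among them, 343 cells held 7 Kcnj10 UMIs, a level of 0.00494. The other 608 held 1373, a level of 0.569. In CKO the levels were 0.00442 in 301 and 0.443 in 431 cells. Kcnj10 RNA was thus almost absent from neurons without Schwann RNA in both pools. Across type I neurons its Spearman correlation with the sum of these genes was 0.65 in control and 0.66 in CKO. By stretch Kcnj10 was 0.183, 0.329 and 0.210 in CKO and 0.274 and 0.411 in control, and the share of cells with 5 or more Schwann UMIs was 49.6%, 64.8% and 47.1% in CKO and 49.0% and 70.9% in control. Of other cell types, hair cell genes summed to at most 0.299, supporting cell genes to 0.324, fibroblast genes to 1.01 and macrophage genes to 0.0448 in any class, while the 12 glial genes summed to 33.2 to 43.5 per stretch. These sums hold few markers, with 2 of 6 hair cell, 2 of 5 supporting cell, 3 of 4 fibroblast and 1 of 4 macrophage genes measured, and no gene of the endothelial, erythrocyte or stria list.

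**Figure D2:**
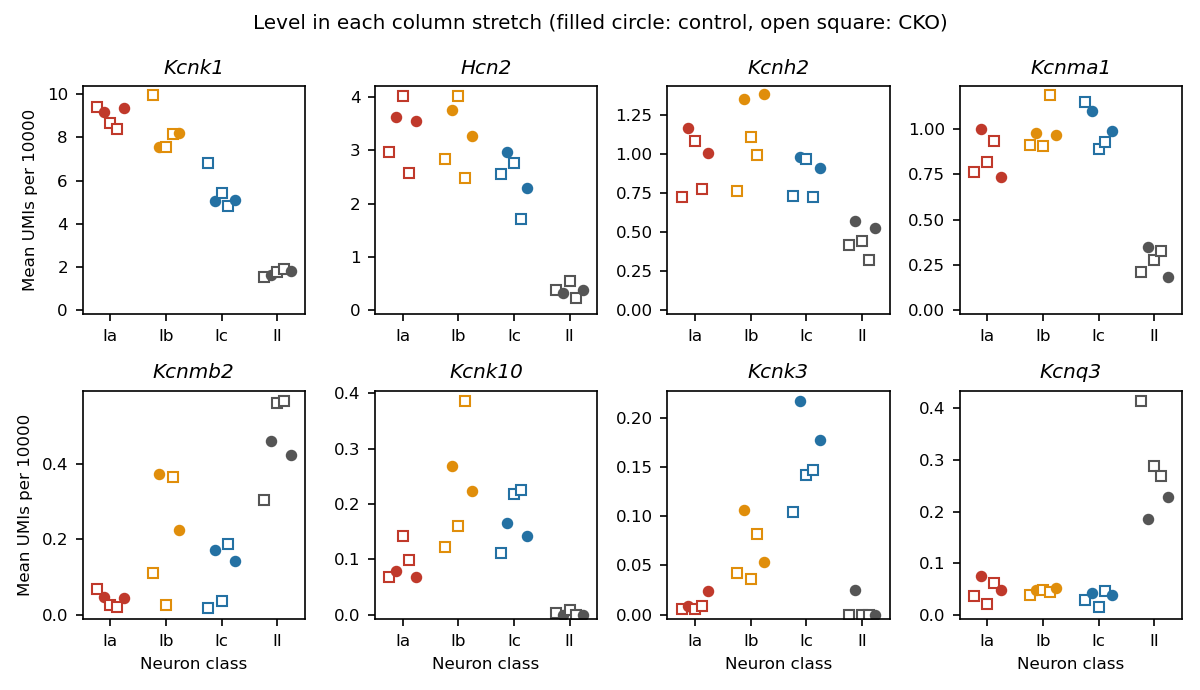
Level (mean UMIs per 10000) of 8 channel genes by class of neuron in each of the 5 column stretches; filled circles are control stretches and open squares CKO stretches. For Kcnk1, Hcn2 and Kcnma1 all type II values lie under all type I values and the genotypes overlap, while CKO stretch 4 holds the high CKO value of Kcnmb2 in Ib (0.366).

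Type II neurons differed most from the rest. In control, 13 of the 39 genes reached the mean of 0.2 in type I or type II, and 7 of them were at least 1.5-fold lower in type II, where 19.8% of all genes tested were. Among them were Hcn2 (log2 -2.91), Kcnk1 (-2.07), Kcnt1 (-1.51), Kcnj11 (-1.51), Kcnma1 (-1.47) and Kcnh2 (-0.93). Kcnq3 (1.03) and Kcnmb2 (0.94) were higher, 2 of 13, where 19% of all genes were. The share of channel genes that were lower was above the background, and the share higher was close to it. The median log2 of the 13 was -0.73, beside 0.02 for all genes.

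In CKO the same 9 genes passed in the same directions, 7 lower (background 19.3%) and 2 higher (19.8%). Type II lay below type I in all 5 stretches for 10 of the 13 genes, where 35% of all genes did, and above it for 3, where 36% did. Hcn4, Kcnmb2 and Kcnq3 were the 3. Type II cells were shallower, with a median of 25326 UMIs against 39393 for type I in control, and 27102 against 47501 in CKO. Without control stretch 5 Kcnq3 was under the mean of 0.2 in control, while Kcnmb2 and the 6 lower genes given by name passed whichever stretch was left out. Levels are shares of each cell's total. The shares of cells given above were thinned to 1 depth, except those called unthinned or at full depth, as for Kcnk10. Thinned, Kcnk10 was seen in 8.68% to 21.5% of the control type I classes and in 0 control type II neurons.

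Within type I, differences were fewer. Between control Ia and Ib, 2 of 14 genes were lower in Ia (background 2.19%), Kcnmb2 (log2 -1.42) and Kcnk10 (-1.01), and 0 were higher (0.952%). Between Ic and Ib, Kcnk3 was higher in Ic (0.77; 1 of 14, background 1.20%) and Kcnk1 was lower (-0.63; 1 of 14, background 1.14%). Between Ia and Ic, Kcnk1 was higher in Ia (0.87; 1 of 13, background 2.31%) and Kcnk3 lower (-1.32; 1 of 13, background 4.45%). With control stretch 2 left out, Kcnk3 in Ic was under the mean of 0.2 and passed neither comparison, although its log2 values of 0.86 and -1.17 were past 1.5-fold. With control stretch 5 left out, Kcnk1 fell just short between Ic and Ib (-0.57). The differences of Kcnk10 and Kcnmb2 between Ia and Ib, and of Kcnk1 between Ia and Ic, passed whichever stretch was left out. Since no test was made, a gene that missed the 1.5-fold limit is not shown to be alike between classes; Kcnt1, at 0.216 in Ia and 0.346 in Ib, is such a case (log2 -0.49).

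**Figure D3:**
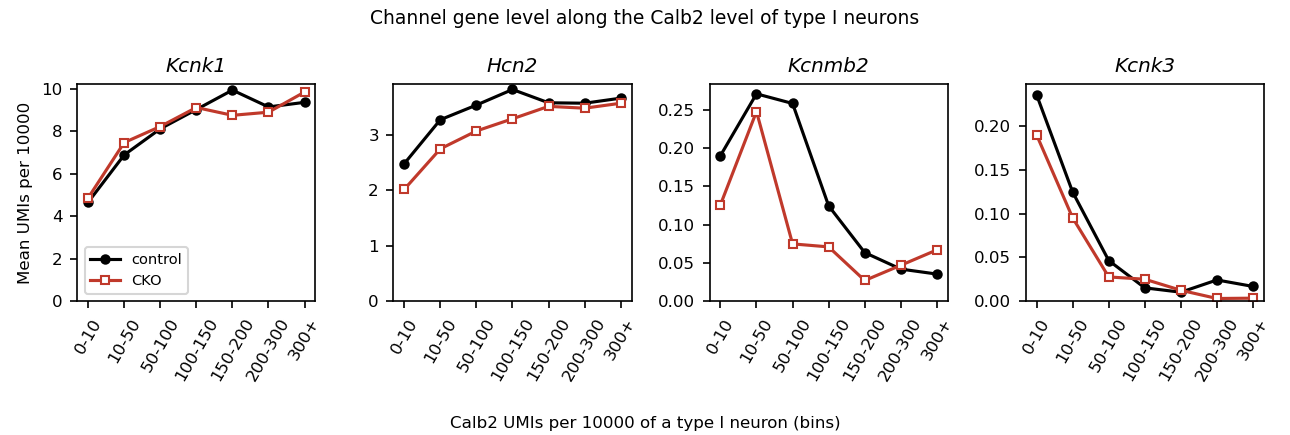
Levels (mean UMIs per 10000) of Kcnk1, Hcn2, Kcnmb2 and Kcnk3 in type I neurons binned by their Calb2 level (UMIs per 10000), control and CKO. Kcnk1 goes from 4.65 to 9.36 in control and from 4.86 to 9.84 in CKO, while Kcnk3 goes from 0.236 to 0.0168 and from 0.190 to 0.00344.

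The comparison of CKO with control asks how loss of Runx1 bears on these channel genes. Over all neurons, 0 of the 12 genes at a mean of 0.2 or more were 1.5-fold higher in CKO (background 0.389%) and 0 were 1.5-fold lower (0.509%). With no limit on the mean, 0 of 39 were higher (0.245%) and 0 lower (0.299%). With 0.1 added, the scarcest genes could not reach 1.5-fold even at 0 UMIs in 1 pool, so for them this result was fixed in advance. Among such genes the ratio of summed UMIs, with nothing added, was 0.461 for Kcnj14 and 1.53 for Kcnk2. Among the 12 genes, differences under 1.5-fold mostly pointed down: their median log2 was -0.19, beside -0.03 for all genes tested. Kcnh2 was among the lowest relative to control, with 1.08 UMIs per 10000 in control and 0.813 in CKO (log2 -0.37). Its ratio of summed UMIs was 0.764 (95% Poisson interval 0.729 to 0.800).

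Beside it were Kcnj10 (log2 -0.36), Kcnj11 (-0.35), Kcnmb2 (-0.33) and Kcnt1 (-0.30), while Kcnk1 was 0.09. The order of these depended on the scale: with summed UMIs Kcnmb2 (-0.41) and Kcnj10 (-0.40) were below Kcnh2 (-0.35). Among cells with few Schwann UMIs the log2 of Kcnj10 was 0.01, with both levels near 0, and that of Kcnh2 was -0.49. For 4 of the 12 genes, Kcnh2, Kcnj11 and Kcnt1 among them, all CKO stretches were below both control stretches, where 13.3% of all genes were, and for 0 all were above (5.77%). These sizes depended on single stretches. Without CKO stretch 3, Kcnj10 passed the limit (log2 -0.63) and Kcnh2 was -0.55, whereas without CKO stretch 1 they were -0.19 and -0.24, and without control stretch 5 Kcnj10 was -0.10. Leaving out 1 stretch at a time, Kcnmb2 ranged from -0.58 to -0.08, Kcnt1 from -0.42 to -0.15, Kcnj11 from -0.41 to -0.32 and Kcnk1 from -0.05 to 0.28.

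Kcnk3, under the mean of 0.2 in both pools, was lower in the CKO pool. The control pool had 0.0933 (375 UMIs) and the CKO pool 0.0343 (135 UMIs), log2 -0.53, and its ratio of summed UMIs was 0.391 (0.319 to 0.478). The pools hold different shares of the class where Kcnk3 is densest: Ic made up 29.3% of control and 14.9% of CKO neurons. With the class shares of control given to both genotypes the log2 was -0.29. Leaving out 1 stretch gave -0.31 without stretch 2 to -0.75 without stretch 5, and -0.65 without stretch 4. Ic neurons made up 13.5%, 7.53% and 35.7% of stretches 1, 3 and 4 (CKO), and 38.4% and 21.9% of stretches 2 and 5 (control), and Kcnk3 in the same order was 0.0265, 0.0208, 0.0840, 0.126 and 0.0665. Stretch 4 was thus like the control stretches in both respects. Within Ic the Kcnk3 level was 0.104, 0.142 and 0.147 in CKO and 0.217 and 0.177 in control, below control in each CKO stretch, as were 1 of 11 channel genes and 13% of all genes.

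Within classes, 1 difference passed the limit. Kcnmb2 in Ib was at 0.290 in the control pool (424 UMIs) and at 0.150 in the CKO pool (122 UMIs). The log2 was -0.64, 1 of 13 genes where 0.360% of all genes were lower, and 0 of 13 were higher (0.765%). Its stretches were 0.110, 0.0254 and 0.366 in CKO and 0.373 and 0.225 in control. CKO stretch 4 was therefore as high as control, and the pooled difference rests on stretches 1 and 3. The log2 was -0.50 without stretch 1, -0.37 without stretch 2 and -0.30 without stretch 3, all short of the limit, and -1.20 without stretch 4. At a Calb2 level of 50 to 100 Kcnmb2 was 0.258 in control and 0.0748 in CKO, and at 10 to 50 it was 0.271 and 0.248. After thinning, 24.8% of control Ib neurons (20.6 to 29.4) and 13% of CKO Ib neurons (8.79 to 18.2) had a Kcnmb2 UMI, with 24.8% and 13.9% in a second thinning and 53.2% and 32.4% unthinned. No class lacks Kcnmb2, so its free RNA could not be gauged.

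Other classes had no channel gene past the limit. In Ia, 0 of 12 genes were higher (background 0.298%) and 0 lower (0.251%); in Ic, 0 of 11 (0.777% and 0.568%); and in II, 0 of 11 (0.592% and 0.355%). Kcnh2 was lower in the CKO pool in every class, with log2 values of -0.17, -0.49, -0.26 and -0.35 in Ia, Ib, Ic and II. This was not particular to Kcnh2. Kcnj10 (-0.43, -0.17, -0.21 and -0.17) and Hcn4 (-0.17, -0.15, -0.39 and -0.16) were among other channel genes lower in every class. The share of all genes lower in every class is not given here. In Ia the difference of Kcnh2 rested on stretch 1, without which the log2 was 0.02. Its Ia level in CKO stretch 3 (1.08) was above that in control stretch 5 (1.0). In Ib, Kcnh2 passed the limit without stretch 3 (-0.62). In Ib, 3 of 13 genes had all CKO stretches below both control stretches, Kcnh2 and Kcnj11 among them (background 14.8%). Kcnq3 in type II was nearest to passing upwards, with a level of 0.202 in the control pool and 0.334 in the CKO pool (log2 0.52). Its level was 0.414, 0.289 and 0.270 in the CKO stretches, beside 0.185 and 0.228 in the control ones. It passed without stretch 3 (log2 0.65) and without stretch 5 (0.61). Its ratio of summed UMIs was 1.57 (1.15 to 2.15). After thinning, 23.5% of control (16.2 to 32.2) and 25.0% of CKO type II neurons (18.3 to 32.7) had a Kcnq3 UMI, a second random thinning gave 18.5% and 26.3%, and unthinned the shares were 41.2% and 57.9%.

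**Figure D4:**
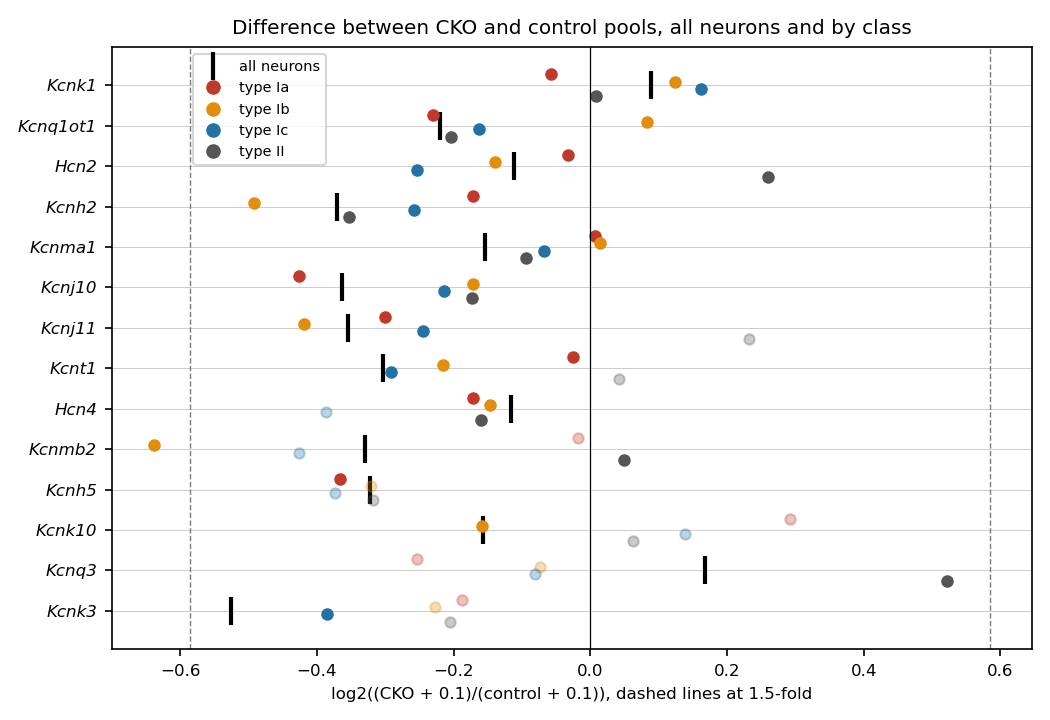
Log2 difference of CKO from control for 14 channel genes, over all neurons (bars) and within each class (points). Dashed lines mark 1.5-fold, and faded points have a mean under 0.2 in both genotypes. The only value past a line is Kcnmb2 in Ib (-0.64). Kcnh2, Kcnj10 and Hcn4 are among the genes that lie below 0 in every class.

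Genes that work with these channels were described in the same way. Of 50 listed partners, which include calmodulins and ankyrin for M channels, the HCN anchor Pex5l, G protein subunits, sulphonylurea receptors and the sodium leak complex, 38 were measured and 28 had a mean of 0.2 or more. Over all neurons 0 of the 28 were higher and 0 lower, with a median log2 of -0.06. Nalcn, the sodium leak channel, was under that mean and is named after its values were seen. It was 0.0264, 0.179, 0.308 and 0.0447 in control Ia, Ib, Ic and II, highest in Ic as Kcnk3 was. Over all neurons it was 0.0278, 0.0284 and 0.179 in stretches 1, 3 and 4 (CKO), and 0.221 and 0.124 in stretches 2 and 5 (control) (log2 of the pools -0.79).

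The remaining channel genes were sparse. In all, 16 of the 39 reached a mean of 0.2 in a pool or class and 23 did not, the highest of these having a mean of 0.138 over all cells. Of the 23, 11 had at most 100 UMIs in all cells. With no limit on the mean, Kcnh5, Kcnj3, Kcnj12, Kcnk3, Kcnk10, Kcnn1 and Kcnn2 joined the genes lower in control type II than in type I, and Hcn3 and Kcnq5 joined those higher. The share of all genes past 1.5-fold without that limit is not given here, so these lists are not read as a trait of the channel genes. For genes at 0 UMIs in type II the log2 depends on the added 0.1 and is not a bound.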

How the data were processed

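Single-cell RNA libraries of spiral ganglion neurons from 2 control and 3 CKO samples were made with a droplet-based 3′ assay, per the labels' protocols. Cell Ranger, Seurat and build mm10 are named, without versions, in the submitters' processing notes. A matrix of natural log values (14715 genes, 1954 cells) was deposited by the authors, ln(1 + 100000 × UMI count / cell total), a unit settled from the values: 100% of positive values gave whole UMI counts within 0.01. A deposited record gives each cell's genotype but no sample, so the design planned for samples could not be used and no test was made.

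Levels, log2 values (0.1 added) and the limits of 0.2 and 1.5-fold are as defined in the text. UMI ratios have exact Poisson and shares exact Clopper-Pearson 95% intervals. For 0 cells with a UMI the limit is 3 counts. Cells were thinned to 10000 UMIs (all were deeper), with a second draw as an alternative. No doublet caller was run; how the authors treated doublets is not given in the sources used here. Genes were matched to GENCODE (39 of 39) on GRCm38. The naming rule took every member at 0.2 or more in a pool or class (some members are not reported here), with stretch values for the 12 of highest mean and those past the limit; Kcnj12, Kcnj14, Kcnmb4, Hcn3, Kcnh7, Kcnq1, Kcnq5, other scarce genes and Nalcn were added after their values were seen. Members and lists were chosen with earlier results of these data known. Python 3.11.15, numpy 2.4.6, pandas 2.3.3, scipy 1.17.1 and matplotlib 3.10.9 were used, and the calls were tested on simulated data. Alternatives were other pseudocounts, level limits, totals and class limits, leaving out each stretch, and cells with little glial RNA.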

Additional observations from a re-analysis of the deposited data

How the results depend on the processing

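Counts of channel genes past 1.5-fold moved mainly with settings for low levels, and no value of a gene past that limit changed sign. Smaller differences between genotypes did: leaving out 1 stretch changed the sign of 42 of 425 log2 values (17 genes, 5 comparisons), all of size 0.37 or less. Among them were Kcnk1 over all neurons (-0.02 without stretch 1 and -0.05 without stretch 2), Kcnh2 in Ia (0.02 without stretch 1) and Kcnj10 in Ib and Ic (0.17 and 0.10 without stretch 5). In cells with little RNA over the glial list Hcn2 over all neurons was 0.23, where only 97 CKO and 77 control cells were left. Of these, 91 and 72 were type II, and the type II log2 of Hcn2 with all cells kept was 0.26. With 0.5 added in place of 0.1, 0 genes were higher and 7 lower in type II against type I, and 0 were lower in Ia against Ib, 0 lower in Ia against Ic, 0 higher in Ic against Ib and 0 lower in CKO Ib. With 0.05 added, Kcnq3 passed in CKO type II (1 higher) and 2 genes were lower in Ic against Ib. With no limit on the mean, 4 were higher and 14 lower in type II, 4 lower in Ia against Ic and 2 higher in Ic against Ib. Counts in this paragraph are given without the share over all genes and are not read as a trait of the channel genes. At a limit of 0.5 the same comparisons gave 0 higher in type II, 0 lower in Ia against Ib, 0 lower in Ia against Ic, 0 higher in Ic against Ib and 0 lower in CKO Ib. In cells with few Schwann UMIs, an alternative chosen after seeing the data, 0 were lower in CKO Ib and 1 in CKO Ic (Kcnt1), 3 were lower in Ia against Ic and 2 in Ic against Ib. With Calb2 at 100 dividing Ia from Ib, 0 were lower in CKO Ib and 2 in Ic against Ib. Summed UMIs and totals without the 50 highest genes gave 2 lower in Ic against Ib. Where a count moved for another reason than the limit on the mean or the added value, the cause was not tested.

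Leaving out 1 stretch at a time, CKO against control gave 0 to 1 lower over all neurons, 0 to 1 lower in Ia, 0 to 1 lower in Ib and 0 to 1 higher in II. Within control, type II against type I gave 1 to 2 higher and 7 to 8 lower, Ia against Ic 1 to 2 higher, and Ic against Ib 0 to 1 higher. The single genes were Kcnj10 without stretch 3 (all neurons and Ia), Kcnh2 in place of Kcnmb2 without stretch 3 (Ib, log2 -0.62) and Kcnq3 without stretches 3 or 5 (II). In Ic against Ib, Kcnmb2 took the place of Kcnk1 without stretch 5, and in Ia against Ic, Kcnj10 that of Kcnk3 without stretch 2. Without stretch 5 Kcnq3 was no longer among those higher in type II, and without stretch 2 Hcn2 joined those higher in Ia than in Ic. These counts too are given without the share over all genes and are not read as a trait of the channel genes. The alternative with little RNA over the whole glial list could not be run for 11 comparisons, since under 10 cells of a class were left. No paired analysis was possible because cells carry no sample and the columns no replicate number. Depth limits what can be said of the 23 genes under a mean of 0.2.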
